A study of Mus musculus with 28 samples.

Results

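Bru-seq compared nascent RNA in EloA null mouse embryonic stem cells (mESCs) after 10 min and after 5 min of recovery from flavopiridol (FP). Of the 28 samples of the series, the 4 recovery libraries of EloA null cells were taken by their titles, with 2 libraries at each time. The genes of both times were joined by name, and the 10548 of 24980 joined genes with a mean RPKM above 0.5 in EloA null cells at 5 min or at 10 min were tested. RPKM counts the reads of a gene per kilobase, scaled to the total of its library. EloA null and wild-type (WT) mESCs of the murine line CCE28 were grown on feeder fibroblasts with LIF and the inhibitors PD0325901 and CHIR99021, and were depleted of feeders. The treatment text of the labels names the line CJ7, and the difference was not resolved here. All 8 recovery libraries came from cells given 1 µM FP for 60 min, then washed and given 2 mM 5-bromouridine (BrU) for 5 min or 10 min. BrU marks the RNA made in that time, which is then immunopurified and sequenced. At 5 min and 10 min there were also 2 WT libraries each, and in steady state, without FP, 2 libraries of each genotype. Steady-state cells took up BrU for 10 min. The first steady-state library titled EloA null is labelled wild type in its genotype field and serves only for levels given side by side. The null cells were a gift to the authors. Whether they are 1 clone, and which part of the gene is disrupted, is not given in the sources used here.

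EloA is the transcriptionally active subunit of elongin, a factor that stimulates elongation by RNA polymerase II (Pol II) in vitro. EloA also serves in a ubiquitin ligase with Elob, Eloc, Cul5 and Rbx1 or Rnf7. FP inhibits Cdk9, the kinase of P-TEFb, which releases Pol II paused near the start of a gene. During the block, polymerases already past the pause run on toward the end of the gene. After removal of the drug a new wave of Pol II enters the gene bodies. The 2 times ask how the nascent RNA of a gene of a given length changed during recovery without EloA.

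The 4 libraries held 11915569 and 17272752 reads at 5 min, and 19965329 and 28547356 at 10 min. The 4 WT recovery libraries held from 9857527 to 22057091. Between replicates, the log2 level of a gene differed by a median of 0.202 at 5 min and 0.136 at 10 min, and by 0.181 and 0.119 for genes with at least 100 reads. All 10 markers of ES cells were among the tested genes, with a summed RPKM between 159 and 265 in the 4 libraries. Of 16 markers of feeder fibroblasts, 4 were tested (Col1a1, Fn1, Lox and Acta2), Lum was at 0 in all 4 libraries, and the summed RPKM ran from 11.3 to 15.2. Of 9 endoderm markers 1 was tested, and of 10 neural and 9 2-cell-like markers none, with a summed RPKM of at most 0.87 in each of these last lists. Eloa itself, on chromosome 4 (GRCm38.p6, 136003370 to 136021649, minus strand), had an RPKM of 5.14 and 6.25 at 5 min and of 8.74 and 8.93 at 10 min in EloA null cells. In WT cells it was 2.96 and 2.82 at 5 min, and 4.65 and 6.51 at 10 min. The RPKM of a gene with introns appears to rest on its introns here, and which part of Eloa is disrupted is not known. Its level was therefore no check of the deletion. In a bulk sample, fewer cells that transcribe a gene and less RNA per cell cannot be told apart. Time coincides with the table in which the authors normalized the libraries, so that a difference between tables and a difference between times cannot be told apart. It also coincides with the length of BrU labelling, 5 min or 10 min, which cannot be told apart from recovery. Steady-state cells were labelled for 10 min, so levels at 5 min are set beside a longer labelling.

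Most genes changed their share of nascent RNA between 5 min and 10 min. As deposited, the RPKM of the median gene was higher at 10 min by 0.99 on the log2 scale. Each library was therefore centred on its median, and changes are given relative to the median of all tested genes, called relative changes below. A gene whose RPKM stayed the same thus had a relative change of about −0.99. In the limma fit to log2(RPKM + 0.1), 3668 of 10548 genes gained share (34.8%) and 2707 lost share (25.7%) at an adjusted p under 0.05. On the scale of that fit the median gene changed by 0.19, so that genes near the median were called gained more easily than lost. An adjusted p tests the change on that scale, which lies 0.19 above the relative change. With the log2 ratios centred on their median, 2778 genes gained and 3187 lost, all 2778 of them called gained and 2707 of them called lost in the first fit as well. Without any centring, 7104 genes were higher and 1492 lower at 10 min. Past a 1.5-fold centred ratio with no overlap between the libraries of the 2 times were 2279 gains (21.6%) and 2931 losses (27.8%).

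Of the tested genes, 7793 passed the limit of 0.5 at both times, 591 at 5 min alone and 2164 at 10 min alone. A gene that passed at 1 time alone had to differ, and of those 2164 genes 1192 gained and 24 lost. Of the 591 genes 532 lost and none gained. The median span was 14.2 kb in the 2164 genes and 82.4 kb in the 591, against 18.9 kb in those that passed at both times. The counts and medians by length below include these genes, so the filter had a part in them. Just inside the limit stood Aldh9a1, with a mean RPKM of 0.0859 and 0.5003, and just outside Col20a1, with 0.412 and 0.4998. The gained genes had a median RPKM of 0.843 at 5 min, 3.08 at 10 min and 2.09 in steady state, and 75.4% of them stood above their own steady-state mean at 10 min, against 7.63% at 5 min. The lost genes went the other way, with medians of 1.77, 1.10 and 1.71, and 58.4% above steady state at 5 min against 26.3% at 10 min. These directions follow from the choice of the genes, and the share above steady state also rose among the genes not called, from 33.4% at 5 min to 64.9% at 10 min. The median span was 79.7 kb in the lost genes, 17.3 kb in the gained genes and 10.4 kb in those not called.

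The change followed the length of the gene. Genes of 15 to 30 kb gained most often, with 1402 of 2203 called gained (63.6%) and 136 called lost (6.17%), and a median relative change of 0.44. Among genes of 10 to 15 kb 56.5% gained, and among those of 5 to 10 kb 38.8% did. Genes over 200 kb lost share in 366 of 368 cases and gained in none, with a median relative change of −2.15. Genes of 100 to 200 kb lost in 708 of 746 cases, with a median of −1.67, and those of 60 to 100 kb in 531 of 862, with a median of −0.76. Genes of 30 to 60 kb stood between, with 652 of 1669 gained, 262 lost and a median of 0.07. Of the 866 genes under 1 kb, 115 gained and 185 lost, but their median of 4.5 reads per library leaves their values imprecise. GC content moved with length, from a median of 50.9% in genes under 1 kb to 42.7% in those over 200 kb. With the trend of each library with GC content removed, 3366 genes gained and 2993 lost.

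**Figure D1:**
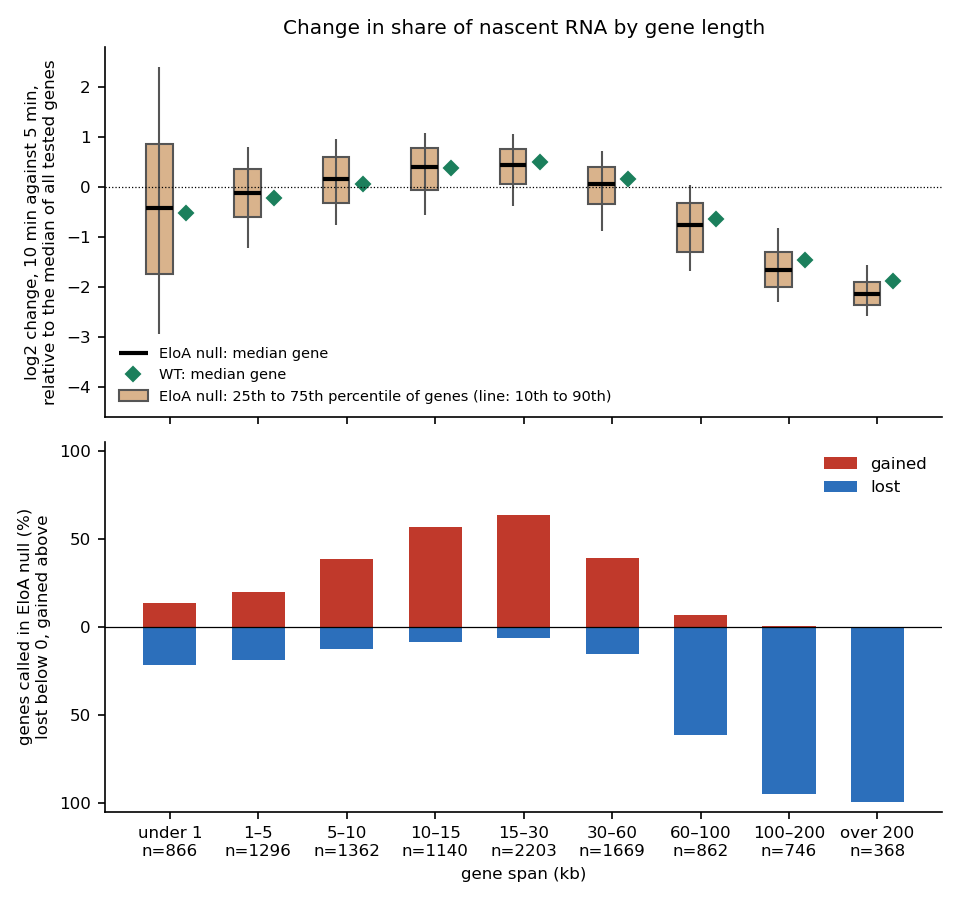
Upper panel: log2 change of each gene from 5 min to 10 min of recovery, relative to the median of all tested genes, by gene span in kb; boxes span the 25th to 75th and lines the 10th to 90th percentile of EloA null genes, black bars their medians and diamonds the WT medians. Lower panel: percent of the genes in each bin that gained (up) or lost (down) share in EloA null cells. The medians peak at 0.44 in genes of 15 to 30 kb and fall to −2.15 in genes over 200 kb.

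The levels themselves showed where the signal stood at each time. At 5 min the median RPKM of genes of 30 to 60 kb was the lowest of the 9 bins in both libraries, 0.966 and 0.992, and that of genes over 200 kb the highest, 1.94 and 1.84. At 10 min this order had turned. The highest medians, 4.05 and 3.62, were those of genes of 10 to 15 kb, and the lowest, 0.805 and 0.881, those of genes over 200 kb. In steady state the same 2 bins had medians of 2.06 and 1.95, and of 1.02 and 1.02. The genes of 10 to 15 kb thus stood above their steady-state share at 10 min in both libraries, and the genes over 200 kb above theirs at 5 min. These are shares of a library, not amounts of RNA.

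**Figure D2:**
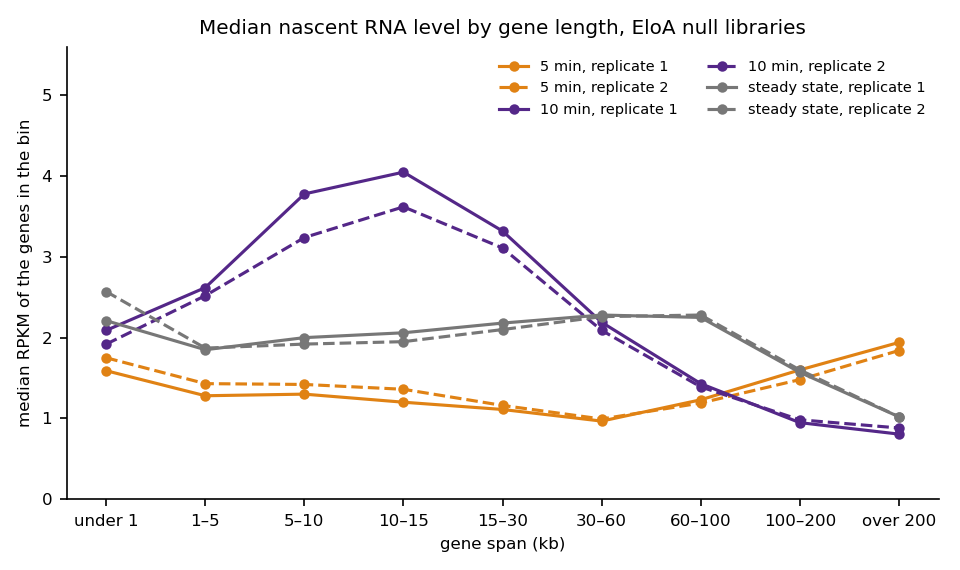
Median RPKM of the tested genes in each bin of gene span (kb) in the 6 EloA null libraries, with replicates as solid and dashed lines. The 10-min libraries rise to 4.05 and 3.62 in genes of 10 to 15 kb, and the 5-min libraries are highest, at 1.94 and 1.84, in genes over 200 kb.

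As 1 value per library, the median log2 level of the 3872 genes of 15 to 60 kb, each gene set against its own mean over the 4 libraries, was compared with that of the 3524 genes under 10 kb. The difference was −0.13 and −0.21 at 5 min, and 0.12 and 0.17 at 10 min. The times did not overlap, and the contrast rose by 0.32, with an SD between replicates of 0.0458. Its size depended on the processing. It was 0.0937 by summed intron length, 0.18 with a pseudocount of 1, 0.51 with the GC trend removed, and 0.0483 without the filter on low values, where the exact permutation p was 0.667. The same contrast for the 1114 genes over 100 kb was 1.03 and 0.75 at 5 min, and −1.005 and −0.83 at 10 min, a change of −1.80 with an SD of 0.166, and −0.93 without the filter. An exact permutation test (two-sided, 2 libraries against 2) gave p = 0.333 for both contrasts with the filter, the smallest it can give.

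Among genes with at least 100 reads per library on average, the 12 largest gains were in genes of 3.82 to 26.1 kb. Smim18, a small integral membrane protein gene on chromosome 8 (33742112 to 33747770, minus strand, in the span of Gtf2e2 on the plus strand), had an RPKM of 0.281 and 0.320 at 5 min and of 5.20 and 5.83 at 10 min. Its relative change was 2.82 ± 0.21 (SE, n = 2 libraries per time; limma adjusted p = 0.000192). Gtf2e2, whose span holds Smim18, was not called, at 0.13 ± 0.17. Klhl35 on chromosome 7 (99463121 to 99474022, plus strand) went from 0.469 and 0.581 to 8.46 and 7.76, a relative change of 2.73 ± 0.14. Masp2, which encodes a serine protease of the lectin pathway of complement, went from 0.627 and 0.585 to 9.13 and 8.63. Ip6k2, an inositol hexakisphosphate kinase gene, stood at 0.0986 and 0.109 at 5 min and at 2.296 and 2.433 at 10 min. These genes were chosen for the size of the gain and for no overlap between the times, so that the gap between the times follows from the choice. Others of the 12 were Nfe2l3, a CNC-family transcription factor (2.53), Slc39a13, a zinc transporter (2.42), Has3, a hyaluronan synthase (2.27), and Baat, the enzyme that conjugates bile acids (2.17), each with its relative change. The remaining 4 were 1700094D03Rik, Clba1, Gm550 and Lrrc14b, at 2.22 to 2.37. At 10 min all 12 but Has3 were above their steady-state level in both libraries, Baat with 1.24 and 1.28 against 0.139 and 0.125.

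**Figure D3:**
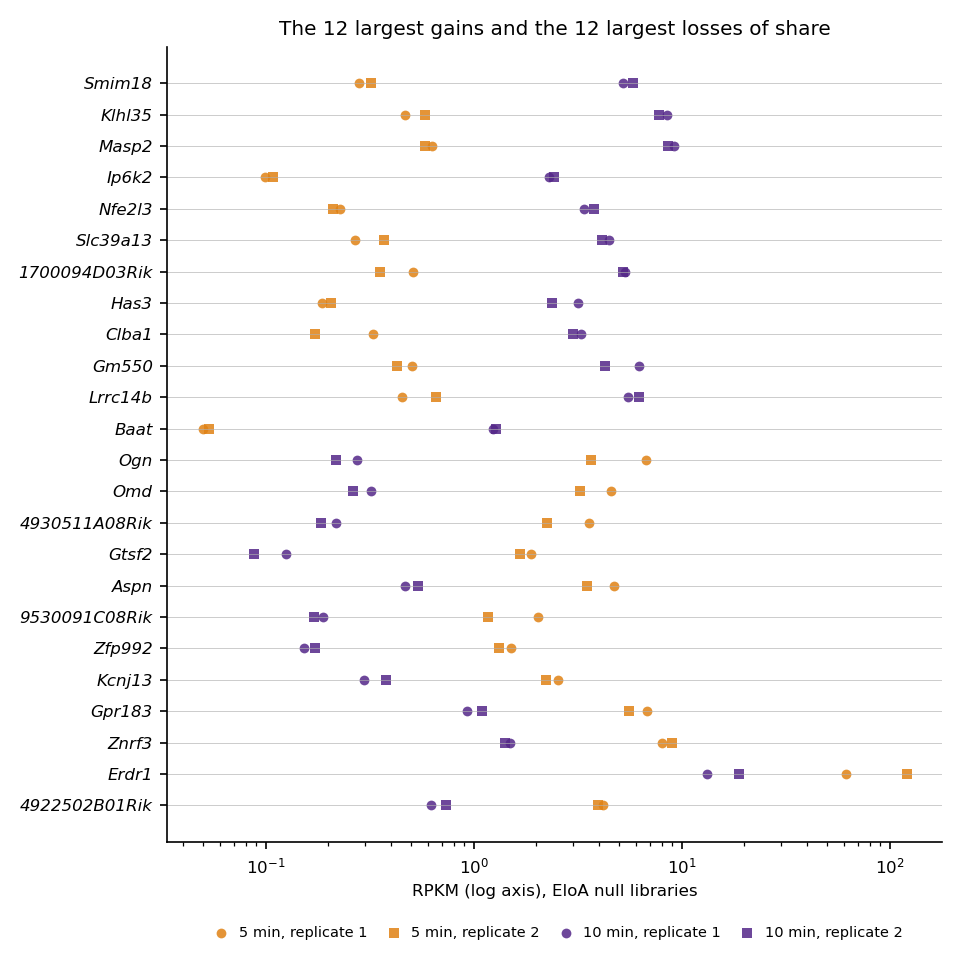
RPKM on a log axis in the 4 EloA null libraries for the 12 genes with the largest gain (top) and the 12 with the largest loss (bottom) among genes past the adjusted p with at least 100 reads per library on average and no overlap between the times, which the choice of these genes required. Smim18 went from 0.281 and 0.320 to 5.20 and 5.83, and Ogn from 6.70 and 3.65 to 0.274 and 0.217.

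Of the 12 largest losses chosen in the same way, 9 lay within the span of a longer gene. The largest was Ogn, which encodes osteoglycin, a small leucine-rich proteoglycan, with an RPKM of 6.70 and 3.65 at 5 min and of 0.274 and 0.217 at 10 min, a relative change of −4.87 ± 0.31 (SE, n = 2 per time; limma adjusted p = 0.000192). Ogn (chromosome 13, 49608015 to 49624501, plus strand) lies within Cenpp (49464025 to 49652950, minus strand), a kinetochore protein gene of 189 kb. Cenpp itself went from 4.49 and 3.48 to 0.814 and 0.871, a relative change of −3.10 ± 0.155. The 3 further tested genes within Cenpp are the proteoglycan genes Omd and Aspn and the matrix gene Ecm2, and their relative changes were −4.33, −3.78 and −3.08. All 4 genes within Cenpp are on the strand opposite to it, and whether strand was used in the counting is not given in the sources used here. Reads of Cenpp and of the genes within it can therefore not be told apart.

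The same held for Kcnj13 within Gigyf2 (relative changes of −3.50 and −1.74), Gpr183 within Ubac2 (−3.48 and −2.27), 4930511A08Rik within Magi1 (−4.28 and −2.62) and 9530091C08Rik within Rora (−3.55 and −2.91): inner and outer gene both lost share. The further 2 of the 9 were Gtsf2 (−4.18) and 4922502B01Rik (−3.42). Of all 1035 tested genes within a longer gene 31.5% lost and 16.3% gained, against 25% and 36.8% of the 9477 others. Across the 210 tested genes of 5 to 60 kb that lie within a longer gene, 110 lost (52.4%) and 48 gained (22.9%). Among the 6164 genes of that length outside any longer gene, 556 lost (9.02%) and 3179 gained (51.6%). Where the outer gene lost, 92 of 102 inner genes lost and 1 gained. Where it gained, 24 of 30 gained and none lost.

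The 3 largest losses outside a longer gene were of 3 kinds. Znrf3, a ubiquitin ligase gene that limits Wnt receptors, spans 168 kb on chromosome 11 (5276329 to 5444847, minus strand) and went from 8.04 and 9.01 to 1.49 and 1.42, a relative change of −3.46 ± 0.23. Zfp992, a zinc finger gene of 20.4 kb, went from 1.505 and 1.319 to 0.153 and 0.172, a change of −3.52 ± 0.155. Erdr1 on chromosome X went from 61.5 and 121 to 13.2 and 18.9, a change of −3.43 ± 0.535. Zfp992 and Erdr1 have near-identical copies in the mouse genome, so that their values are uncertain.

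Among the 2 most strongly labelled genes of each length bin, the order of the bin medians held only in part. Those of 5 to 10, 10 to 15 and 15 to 30 kb all had negative relative changes, from −2.90 in Malat1 to −0.29 in Hnrnpu. The medians of these bins were 0.15, 0.39 and 0.44. Most of the strongest long genes lost share. Kat6b, a histone acetyltransferase gene of 173 kb, had an RPKM of 42.9 and 36.9 at 5 min and of 12.1 and 13.3 at 10 min (relative change −2.63 ± 0.165). Cobl and Tns3, an actin nucleator and a focal adhesion gene of 228 and 233 kb, lost with relative changes of −2.18 and −1.57. Dtnbp1, a gene of 80.0 kb for a subunit of the BLOC-1 complex, lost with −2.02, at 30.4 and 38.5 against 16.1 and 17.3. Its steady-state RPKM of 2.40 and 2.57 was far below both times. In contrast, Sfpq, a splicing and paraspeckle factor gene of 30.4 kb, gained with 0.71 ± 0.125, from 12.7 and 14.9 to 44.0 and 45.9.

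Many of the strongest genes did not pass the test. Dhx9 (31.9 kb, an RNA helicase gene) had an RPKM of 15.1 and 21.2 at 5 min and of 40.6 and 40.4 at 10 min, with a relative change of 0.18 and a fitted change of 0.37 ± 0.18, whose limma adjusted p was 0.113. Eed (26.3 kb, a Polycomb subunit gene) had 16.9 and 19.7, then 30.8 and 30.1, with a relative change of −0.26 and a fitted change of −0.07 ± 0.12, whose limma adjusted p was 0.637. Eif2s2, Hnrnpu, Zfp42 and Srsf3, which encode a translation initiation factor, an RNA-binding protein, an ES cell zinc finger protein and a splicing factor, had relative changes between −0.85 and −0.29 and were not called, though Srsf3 lost share with ratios centred on their median. A p that misses the threshold does not show that these genes kept their share.

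Replication-dependent histone genes make short transcripts without introns or poly(A) tails, in S phase. Of 72 listed genes 50 were tested, 34 lost share, 3 gained and 13 were not called, against 25.7% lost among all genes, and their median relative change was −1.96. Among the 46 under 1 kb, 33 lost and 1 gained. Of the 50, 25 had under 20 reads per library on average, and the genes described next are among the better covered. Hist1h2bg, on chromosome 13 (23571400 to 23571863, plus strand), had an RPKM of 16.1 and 19.0 at 5 min and of 3.89 and 7.55 at 10 min, a relative change of −2.66 ± 0.42 on 36 to 152 reads. Hist1h3e fell from 5.89 and 9.61 to 1.49 and 3.43, and Hist2h2bb from 15.5 and 11.0 to 5.08 and 4.90. In the second library of both times, Hist1h2bg and Hist1h3e were the higher of the pair, and the times still did not overlap. The genes that gained were Hist1h2bc (0.49), Hist1h2bp (0.34) and Hist1h1t (2.59). The first 2 span 8.28 and 14.1 kb in the annotation, and Hist1h1t is a testis histone gene with 25.5 reads per library. H1fnt, another germ cell histone gene that matched the list by its name, had the lowest value, −3.60. In steady state, Hist1h2bg stood at 5.22 and 15.6. Of the 34 lost histone genes, 33 also had a lower mean RPKM at 10 min than at 5 min.

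The starts of 4 histone genes, 3 with a loss and Hist1h2bp with a gain, are shown so that the members of the list that lost and gained can be compared. They were taken from RefSeq (GRCm38.p6) as 110 bases each, of which 60 lie before the start used in the promoter table, which for Hist1h2bp lies a few bases inside the annotated gene, 5′ to 3′ on the strand of the gene. Capitals mark TATAA, searched on that strand between 45 and 10 bases before the start.
Hist1h2bg (RefSeq H2bc8), chr13:23571340-23571449, strand +: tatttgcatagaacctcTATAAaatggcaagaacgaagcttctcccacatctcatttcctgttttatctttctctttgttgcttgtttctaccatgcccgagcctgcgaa
Hist1h3e (RefSeq H3c6), chr13:23562336-23562445, strand -: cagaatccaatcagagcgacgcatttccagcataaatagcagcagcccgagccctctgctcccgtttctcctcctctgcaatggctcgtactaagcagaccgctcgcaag
Hist2h2bb (RefSeq H2bc18), chr3:96269640-96269749, strand +: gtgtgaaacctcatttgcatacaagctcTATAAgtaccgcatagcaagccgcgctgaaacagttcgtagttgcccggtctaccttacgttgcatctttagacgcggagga
Hist1h2bp (RefSeq H2bc22), chr13:21787428-21787537, strand +: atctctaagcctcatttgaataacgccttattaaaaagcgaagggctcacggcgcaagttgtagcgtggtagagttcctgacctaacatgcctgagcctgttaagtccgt

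TATAA stood in that window in 15 of the 32 lost histone genes with a promoter in the table (46.9%), in 2 of 11 that were not called and in 1 of 2 that gained. It was found in 4.71% of all 27025 promoters and in 2.27% of those of tested genes. Among genes under 10 kb, 9.59% of the promoters of lost genes held it (6.01% without the histones), against 2.65% of gained genes and 3.92% of those not called. CCAAT, searched on both strands in the whole window of 300 bases, stood in 27 of the 32 lost histone genes (84.4%), in 8 of 11 not called, in both that gained and in 38% of all promoters. These matches describe the letters only.

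**Figure D4:**
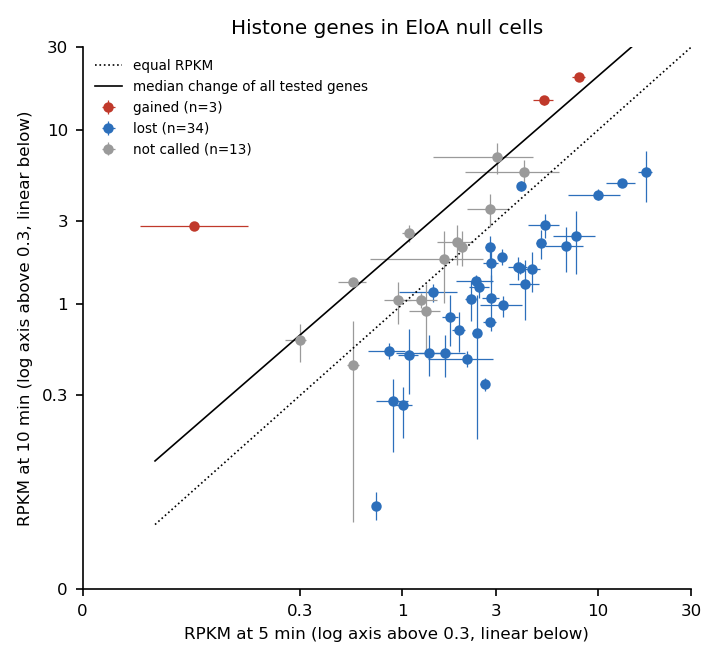
Mean RPKM at 5 min (x) and at 10 min (y) of the 50 tested histone genes in EloA null cells, on axes that are logarithmic above 0.3 and linear below; bars run from the lower to the higher replicate. The 34 lost genes lie below the line of the median change of all tested genes (solid), and 33 of them below equal RPKM (dotted).

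Of 21 nuclear noncoding RNAs 11 lost and 2 gained, against 25.7% and 34.8% of all genes, with a median relative change of −0.54. Malat1, the abundant RNA of nuclear speckles, had the highest RPKM of all genes of 5 to 10 kb. It stood at 496 and 376 at 5 min and at 122 and 108 at 10 min, near its 88.7 and 88.3 in steady state, with a relative change of −2.90 ± 0.18. Neat1, the RNA of paraspeckles and neighbour of Malat1, was not called, at 6.54 and 5.73, then 10.8 and 10.6. The imprinted RNAs Rian (57.8 kb), Kcnq1ot1 (83.4 kb), Meg3 (30.7 kb) and Airn (119 kb) lost, with relative changes of −2.79, −2.20, −1.58 and −1.55. Rpph1 and Rmrp, the RNA subunits of RNase P and RNase MRP made by Pol III, went from 48.8 and 41.1 to 14.9 and 11.8, and from 43.0 and 35.0 to 11.3 and 8.66. Their relative changes were −2.74 ± 0.41 and −2.95 ± 0.63, on 97 to 231 and 62 to 166 reads. Against 25.7% and 34.8% of all genes, 4 of the 5 tested transcripts of Pol I and Pol III lost and none gained. Rn45s, the Pol I precursor of ribosomal RNA, was one of them, at 1520 and 1427, then 1310 and 1067. Ribosomal RNA was depleted from these libraries, and the part of that step in the value was not tested.

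Of 19 pausing and elongation factors 12 gained and 2 lost, against 34.8% and 25.7% of all genes, with a median relative change of 0.45. Their median span was 25.4 kb, and of all genes of 15 to 30 kb 63.6% gained. Subunits of the pausing factor NELF led, with Nelfcd from 0.515 and 0.460 to 2.58 and 2.39 (1.15 ± 0.17) and Nelfb from 1.74 and 1.70 to 7.92 and 6.97 (1.06 ± 0.13). Nelfe and Nelfa gained with 0.75 and 0.40, and Supt5 of DSIF with 0.66. Of the PAF1 complex, which binds elongating Pol II, Leo1, Wdr61 and Ctr9 gained (0.76, 0.56 and 0.55), Paf1 lost (−0.72) and Cdc73 and Rtf1 were not called. Paf1 lost in the 6.39 kb of its gene, with 4.70 and 6.71, then 7.43 and 6.20, values that overlap between the times before centring. Gtf2f2, a TFIIF subunit gene of 114 kb, lost with −1.29, and Gtf2f1, of 7.99 kb, gained with 0.92.

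P-TEFb, its 7SK partners and the super elongation complex had 6 of 19 genes gained and 5 lost, shares near the 34.8% and 25.7% of all genes. The fusion-partner genes Mllt3 (264 kb) and Aff1 (163 kb) lost. Mllt3 stood at 2.25 and 1.93, then 0.558 and 0.632, a relative change of −2.64 ± 0.185. Aff1 stood at 10.9 and 10.5, then 4.50 and 5.09, a change of −2.13 ± 0.20. Mllt1 (42.9 kb), a paralogue of Mllt3, gained with 1.27 ± 0.17, from 0.552 and 0.464 to 2.99 and 2.65. The kinase genes Cdk13 and Cdk12, of 93.5 and 78.7 kb, lost (−1.51 and −0.64), while Cdk9 itself was not called at −0.14 ± 0.24. Of the 6 elongin genes and partners, Rbx1 and Cul5 gained (0.48 and 0.10) and Elob lost (−0.72), and Cul5 was not called with ratios centred on their median. Eloa, Eloc and Rnf7 were not called.

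Chromatin regulators, whose genes had a median span of 72.7 kb, lost in 21 of 43 cases and gained in 9. Of all tested genes 25.7% lost and 34.8% gained, and of all genes of 60 to 100 kb 61.6% lost. Long genes led the losses, among them Kdm4c, a histone demethylase gene (163 kb, −2.26), Ino80, a remodeller (106 kb, −2.21) and Ehmt1, a methyltransferase (129 kb, −1.92). Shorter genes led the gains, with Smarcd1 of the BAF complex (11.7 kb, 0.86), Rnf2 of Polycomb complex PRC1 (31.6 kb, 0.82) and Kat2a (7.74 kb, 0.82). Pluripotency genes were mostly not called, with 5 of 22 lost, a share near the 25.7% of all genes, and 1 gained, against 34.8%. Sox2 lost, from 21.7 and 27.1 to 17.1 and 18.2 (−1.45 ± 0.17), and lies within the noncoding gene Sox2ot. Nr5a2, of 118 kb, lost with −1.71, and Tbx3, Klf4 and Stat3 with −0.74 to −0.63. Nanog and Pou5f1 were not called, at −0.12 ± 0.22 and 0.08 ± 0.30.

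Of 19 heat shock and chaperone genes 9 gained and 4 lost, against 34.8% and 25.7% of all genes. With ratios centred on their median 6 gained and 5 lost, against 2778 and 3187 of all 10548 genes. Bag3, a co-chaperone gene of 23.4 kb, gained with 1.76 ± 0.23, from 0.347 and 0.231 to 2.81 and 2.20, and Hsf1, the heat shock transcription factor gene of 23.8 kb, with 1.38 ± 0.21. Hsp90aa1 (5.36 kb), Hspb1, Hspe1 and Hspa8 lost. Hsp90aa1 stood at 91.5 and 106 at 5 min and at 75.3 and 72.5 at 10 min, above its 28.4 and 24.4 in steady state at both times. Of 24 p53 targets 8 gained, a share near that of all genes, and 2 lost, against 25.7%. Among them were Sesn2 (17.6 kb) at 0.87, Sesn1 (97.9 kb) at −2.60 and Cdkn1a at 0.60. Of 19 immediate early genes 4 gained and 3 lost, against 34.8% and 25.7% of all genes. The gains were led by Srf, the serum response factor gene (1.47), and the losses were Cyr61, Junb and Jund. Genes of cytosolic ribosomal proteins, taken by name, lost in 20 of 98 cases and gained in 2, against 25.7% and 34.8% of all genes. With ratios centred on their median 37 of the 98 lost, against 3187 of all 10548 genes. Some of these only share the prefix, such as the kinase gene Rps6ka5 (177 kb, −3.08). In the 77 protein-coding ribosomal protein genes alone, a choice made after the values were seen, 12 lost and 2 gained, against the same 25.7% and 34.8%. With ratios centred on their median 25 of the 77 lost, again against 3187 of 10548. Splicing factors, 31 in all, had 5 gained and 5 lost, and 110 small nucleolar and Cajal body RNA genes 10 and 12. Among 573 microRNA genes 91 gained and 103 lost, and 521 of them had under 20 reads per library. All 3 lists lay below the 34.8% and 25.7% of all genes in both directions.

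**Figure D5:**
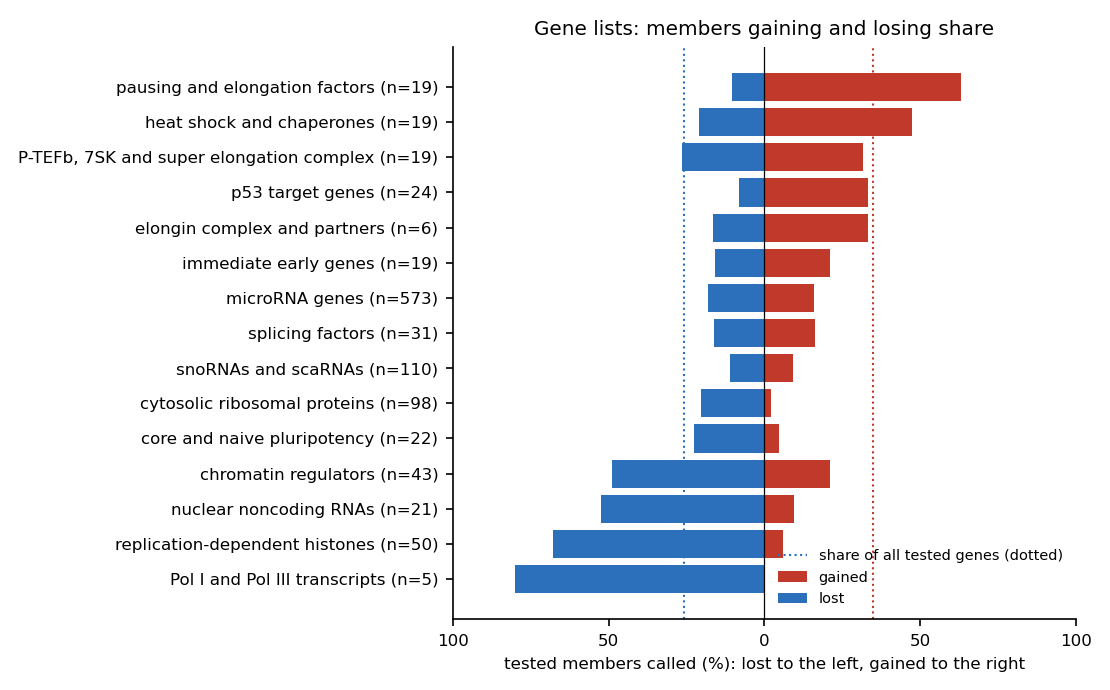
Percent of the tested members of each gene list that gained (right) or lost (left) share in EloA null cells, with the number tested; dotted lines mark the share of all tested genes, 34.8% gained and 25.7% lost. Lists are ordered by their median relative change, from −2.74 in Pol I and Pol III transcripts to 0.45 in pausing and elongation factors.

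The same genes were compared in WT cells, with the same drug, times and number of libraries. They had been chosen by their levels in EloA null cells alone, so the filter bears on the 2 genotypes unequally. In WT cells 3639 gained and 2632 lost, of which 3163 and 2419 were called the same way in EloA null cells, and 10 genes were called opposite ways. The median relative change was 0.49 in WT against 0.44 in EloA null cells in genes of 15 to 30 kb, and −1.875 against −2.15 in genes over 200 kb. The contrast of genes of 15 to 60 kb with genes under 10 kb rose by 0.47 in WT and by 0.32 in EloA null cells. The difference of −0.16 did not pass the exact two-sided permutation of genotype within each time (p = 0.389, where 0.0556 is the smallest of 36 arrangements). It was −0.029 with the GC trend removed and −0.11 without the filter on low values. For genes over 100 kb the change was −1.50 in WT and −1.80 in EloA null cells, a difference of −0.30 (exact permutation p = 0.278). With 2 libraries per group, these tests could not have reached 0.05.

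Gene by gene, the limma interaction called a difference between the genotypes in 5 of 10548 genes (0.0474%), all microRNA genes with at most 13.7 reads per library, and in none of the 9575 genes with at least 20 reads. At an unadjusted p under 0.05 there were 335. Among genes with at least 100 reads and no overlap between the times, Klhl35 had one of the 5 highest values in EloA null against WT cells, with relative changes of 2.73 and 1.75 and an interaction of 1.00 ± 0.195 (SE; limma adjusted p = 0.436). Kcnj13 was among the 5 lowest, with −3.50 and −2.67 and an interaction of −0.81 ± 0.275 (limma adjusted p = 0.982). Neither was called.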

How the data were processed

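Bru-seq was compared in 4 EloA null recovery libraries, beside 4 WT recovery and 2 EloA null steady-state libraries. The authors aligned paired-end reads to mm10 and dm3 with bowtie2, kept unique reads, counted them over RefSeq genes with featureCounts v1.6.1 and deposited RPKM values made with edgeR, in 1 table per time. Drosophila spike-in RNA was added by the authors and is not analysed here. The deposited mean and fold-change columns were not used.

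RPKM values gave whole reads (within 0.01) for at least 96.3% of expressed genes with introns when their introns alone set the length, so reads were worked out on intron length. The authors describe counts over whole genes, and the difference was not resolved here. Gene positions came from RefSeq GRCm38.p6, where 24418 of 24984 listed names matched by symbol and 407 by an older symbol. Values were transformed as log2(RPKM + 0.1), which understates changes of low genes, and each library was centred on its median over the 10548 tested genes. The 8 recovery libraries were fitted with limma 3.58.1 (R 4.3.3, trend, 4 residual degrees of freedom), with Benjamini-Hochberg adjustment over all tested genes. Single values were tested by exact two-sided permutation. The fit was tested on simulated data. Genes were named by rule: the 12 largest gains and losses past an adjusted p of 0.05 with at least 100 reads per library on average and no overlap, the 2 with the highest RPKM in each length bin, for each list the called members and the 2 highest and 2 lowest with at least 100 reads, Eloa, Eed and Dhx9, and the 5 largest differences between genotypes in each direction. Some genes that the rule names are not reported here. The comparison and the lists were chosen with earlier results of these data known. Experiments were performed in duplicate per the authors. Their figure legends describe the duplicates as independent experiments. Alternatives covered the pseudocount, filter, centring, quantile normalization, replicate block, GC content, gene length and each library left out.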

Additional observations from a re-analysis of the deposited data

Results flagged for a closer look

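The limma interaction, the difference of the change from 5 min to 10 min between EloA null and WT cells, passed an adjusted p of 0.05 in 5 microRNA genes. The fitted log2 differences, EloA null minus WT, were −4.37 in Mir15a, −3.549 in Mir182, 3.173 in Mir219a-2, −6.894 in Mir3104 and −3.372 in Mir6900. They rest on means of 4.25, 2.25, 3.75, 0.5 and 13.7 reads per EloA null library. Mir219a-2 was listed at 0 in both EloA null libraries at 5 min and Mir3104 in both at 10 min, and the WT mean at 5 min was 0 in the other 3 and in Mir3104. A fitted difference of such a gene depends on the pseudocount and is no bound. With a pseudocount of 1, 2 genes were called, and with at least 20 reads per library, none.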

How the results depend on the processing

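The count of 6375 called genes was 14185 without the filter on low values, 7022 with the replicate block, 5965 with ratios centred on their median (chosen after seeing the data) and 4736 to 5920 with 1 library left out. The 5210 genes past 1.5-fold without overlap became 2986 at 2-fold, 9475 without the filter, 8115 without centring and 5137 to 5545 with 1 library left out. The 5 interaction calls became 2 with a pseudocount of 1, 32 with 0.01, 19 without the filter, 0 with at least 20 reads (266 at an unadjusted p under 0.05), 1 with the replicate block, and 0 to 10 with 1 library left out: 0 without WT 10-min replicate 1 (341 unadjusted), 2 without WT 5-min replicate 1, 8 without EloA null 5-min replicate 2, and 10 without WT 5-min replicate 2 or EloA null 5-min replicate 1.

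The contrast of genes of 15 to 60 kb ran from 0.27 to 0.36 with 1 library left out, that of genes over 100 kb from −1.94 to −1.67, and the genotype difference from −0.20 to −0.08. With the GC trend removed they were 0.51, −1.49 and −0.029 (exact permutation p = 0.833 for the last). Without the filter the second was −0.93 and with a pseudocount of 1 −1.06. Among the named genes called in the first fit, values turned positive without centring in Mirg (0.45), Snord2 (0.33), Fn1 (0.33), Paf1 (0.27), Elob (0.27), Cyr61 (0.18), Snord22 (0.052), Hnrnpk (0.029), Acta2 (0.026) and Hnrnpa1 (0.0027). Snord2 was 1.02 with quantile normalization, and Fcho1 −0.0011 with a pseudocount of 1. The cause was not tested. Of the named genes' values under all alternatives, 1768 kept their side of the threshold, 69 newly passed it and 103 no longer passed. A further 12, all of genes called in the first fit, turned sign. Turns of sign in genes not called were not counted, such as that of Eed, at −0.067 in the first fit and 0.17 with a pseudocount of 1. Replicate numbers do not pair the samples by any label. With only 2 numbers, the deviations of same-numbered libraries correlated across genes at 0.0951 between the times in EloA null and 0.111 in WT cells, and between genotypes at 0.139 at 5 min and 0.107 at 10 min. Low counts limit genes under 1 kb.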

Other observations

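By RefSeq kind, 3424 of 9162 protein-coding genes gained and 2359 lost, while among 558 long noncoding RNA genes 112 gained and 176 lost. Of 86 transcribed pseudogenes 21 gained and 33 lost. Among all tested genes 34.8% gained and 25.7% lost. Terc, the RNA of telomerase, was the 1 gene of its kind and lost. Among the 10 genes called opposite ways in the genotypes, only Fzd7, a Wnt receptor gene, had at least 100 reads per library, with relative changes of 0.15 in EloA null and −0.61 in WT cells. The difference in Fzd7 did not pass the interaction test (limma adjusted p = 0.335). Chchd1, with 46.5 reads, had relative changes of 0.43 and −1.04 (limma adjusted p = 0.0748 for the difference).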
